A study of Homo sapiens with 12 samples.

Results

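The genes described here were 10 genes of smooth muscle contraction and of the SRF and YAP programmes in the human renal carcinoma cell line 786-O: CNN1, ACTA2, ACTG2, MYL9, TAGLN, TPM1, TPM2, ANKRD1, CCN1 and CCN2. They were taken by symbol from a count table of 17085 genes, and all 10 passed the filter on low counts that left 12841 genes for testing. They had been selected on earlier results of these same libraries, across all 4 treatment groups, among them the low CNN1 counts in the combination group. Their levels and differences between groups are therefore given as a description, without p values, and lend no support to any statement.

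Cells received vehicle (dimethylsulfoxide, DMSO), everolimus, which inhibits mTOR complex 1, 1.5 µM SGI-1027, which inhibits DNA methyltransferases, or the drugs combined, and RNA was taken at 24 h. There were 3 libraries per group and 12 in all, all from the one cell line. The individual sample records give 5 µM everolimus for both groups that received it, whereas the treatment protocol gives 10 µM for the group with everolimus alone and 5 µM for the combination. The written methods of the study name one everolimus dose for both groups, the same as in the sample records. If the protocol is right, the combination and everolimus groups differ in everolimus dose as well as in SGI-1027, and the effects of the 2 differences cannot be told apart. Separate cultures are not stated for replicate libraries in the sources used here. The errors given therefore rest on spread between libraries, which may be technical and which the fit moderates over all genes.

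Smooth muscle cells and stress fibres contract when myosin pulls on actin filaments that tropomyosin, calponin and transgelin decorate. Serum response factor (SRF) switches on many of these genes at a DNA element called the CArG box, together with cofactors of the MRTF family that enter the nucleus when free actin monomers are scarce. YAP and TAZ (WWTR1) are the effectors of the Hippo pathway, bind DNA through TEAD factors, and have ANKRD1, CCN1 and CCN2 among their most used reporter genes. Both programmes respond to tension in the actin cytoskeleton, and several genes are known targets of both.

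The promoters of 3 genes are shown because they hold the letters of the elements by which these programmes are defined. Each run is the 250 bases before the RefSeq transcript start on build GRCh38.p14, written 5′ to 3′ on the strand of the gene. Capitals mark CArG boxes in ACTG2 (chr2:73892758-73893007, plus strand) and the TEAD motif GGAATG in ANKRD1 (chr10:90921088-90921337, minus strand) and CCN2 (chr6:131951373-131951622, minus strand).
ACTG2: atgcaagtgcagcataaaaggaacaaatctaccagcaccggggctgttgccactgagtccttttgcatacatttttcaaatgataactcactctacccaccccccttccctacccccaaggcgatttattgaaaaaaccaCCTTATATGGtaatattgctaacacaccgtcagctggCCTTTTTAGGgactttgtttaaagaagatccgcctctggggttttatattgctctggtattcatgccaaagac
ANKRD1: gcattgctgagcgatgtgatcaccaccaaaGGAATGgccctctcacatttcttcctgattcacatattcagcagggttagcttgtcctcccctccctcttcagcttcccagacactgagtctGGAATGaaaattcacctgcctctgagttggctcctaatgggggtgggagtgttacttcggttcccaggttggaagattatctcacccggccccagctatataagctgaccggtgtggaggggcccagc
CCN2: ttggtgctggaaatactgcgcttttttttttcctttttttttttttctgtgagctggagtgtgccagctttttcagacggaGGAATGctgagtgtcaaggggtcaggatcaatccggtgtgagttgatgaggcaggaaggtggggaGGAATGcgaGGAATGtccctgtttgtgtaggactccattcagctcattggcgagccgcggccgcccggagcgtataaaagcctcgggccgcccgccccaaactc

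The CArG boxes of ACTG2 began 110 and 73 bases before the start. The GGAATG motifs of ANKRD1 began at 220 and 128 bases, and those of CCN2 at 169, 104 and 95 bases before it. A promoter window of 300 bases, 250 before and 50 after the start, was given for 7 of the 10 genes, in 9 windows, and both strands were searched. TAGLN, MYL9 and CCN1 had no window. The exact CArG letters CCWWWWWWGG, where W is A or T, were found for 1 of the 7 genes, against 1.29% of 35116 promoter windows. Boxes that depart from these letters were not searched for, so genes without a match may still hold one. GGAATG was found for 3 genes, the third being ACTA2 in the second of its windows, against 14% of windows. TATAAA, the TATA motif, was found for 2 genes, ACTG2 and CCN2, against 11.5% of windows. The counts are of genes and the percentages of windows, and ACTA2 and TPM2 had 2 windows each, so the measures are not alike. These matches are descriptions of letters and not binding sites.

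Depth was even, with 37046231 to 41516976 counts per library and normalization factors of 0.9895 to 1.012. Counts of replicates varied beyond sampling noise in all groups, and a library stood apart in each of 2 groups. The chi-square per gene was 10.4 and 13.3 for DMSO replicate 1 with the other DMSO libraries, which gave 3.62 with each other, and 16.6 and 16.3 for SGI-1027 replicate 3, where the other SGI-1027 libraries gave 3.05. Pairs in the everolimus and combination groups gave 3.37 to 5.53. Without DMSO replicate 1, the counts of the 10 genes called against DMSO were the same in each treated group, and the log2 fold change of CNN1 was -0.80, -1.45 and -2.91 in the order everolimus, SGI-1027, combination. Without SGI-1027 replicate 3, 6 rather than 7 of the 10 genes were called higher with SGI-1027, the call lost being that of MYL9. The labelled cell type was checked against its markers. All 8 renal carcinoma markers were above an FPKM (fragments scaled by gene length and library total) of 1 in every group, with sums of 3849 to 4597 over the 12 libraries. VIM made up most of the sum, with a mean FPKM of 2749 in DMSO, where PAX8 had 100.5 and PAX2 3.731. None of the 6 smooth muscle markers was above 1 in any group, and their summed FPKM was 0.1804 to 0.2599 in DMSO, 0.2274 to 0.3055 in the everolimus group, 0.3409 to 0.3954 in the SGI-1027 group and 0.2494 to 0.3342 in the combination group. MYH11, the smooth muscle myosin heavy chain, had 0 to 4 counts per library. Of the other markers, SYNPO2 had 52 to 98 counts per library and DES 2 to 16. The 6 markers were thus low, though not all absent, in cells that transcribed several genes of the contractile set. Fibroblast markers summed to an FPKM of 1.328 to 1.472 in DMSO, 1.471 to 1.938 in the everolimus group, 1.6 to 1.753 in the SGI-1027 group and 0.9774 to 1.097 in the combination group, over the 6 of 7 markers in the table. Endothelial and immune markers stayed between 0.07827 and 0.292. In bulk RNA, fewer cells that transcribe a gene and less of its RNA per cell cannot be told apart. The study reports that both drugs together made this cell line release lactate dehydrogenase, a sign of damaged cell membranes. Neither drug alone did so, and the release came before the time at which RNA was taken. The combination libraries may therefore hold RNA of dying cells or of survivors. Whether cell death had a part in any combination value or interaction was not tested.

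Per length, the 10 genes spanned a wide range in untreated cells. TPM1 and CCN1 were the most abundant in DMSO, with mean FPKM of 260.5 and 216.7. MYL9 followed at 67.15, then CCN2 at 26.72 and ACTA2 at 25. TPM2 (4.236), TAGLN (3.527), ANKRD1 (2.835) and CNN1 (1.555) were low, and ACTG2 was close to absent at 0.4543. Differences between groups are given below in TMM-normalized CPM, counts scaled to library size with no correction for gene length, which allow comparison of 1 gene across groups and not of genes with each other. A gene is called higher or lower where edgeR's quasi-likelihood test gave a Benjamini-Hochberg adjusted p under 0.05 over all tested genes.

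**Figure D1:**
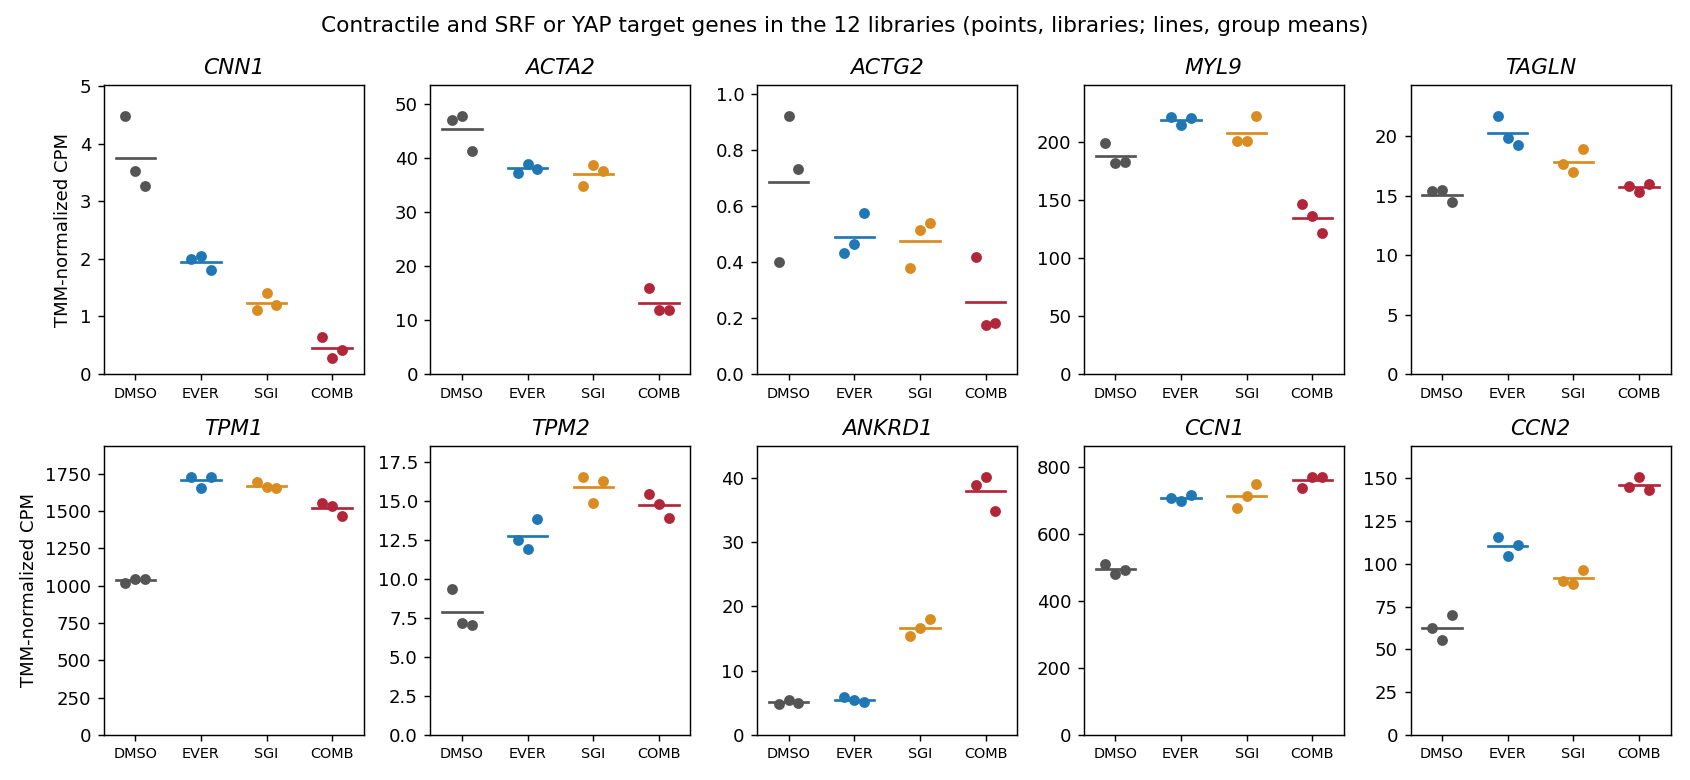
TMM-normalized CPM (vertical axes, each from 0) of the 10 genes in DMSO and in the everolimus (EVER), SGI-1027 (SGI) and combination (COMB) groups; points are libraries and lines are means of 3. CNN1 stepped down from 3.76 in DMSO to 0.449 in the combination group, ACTA2 dropped mainly in the combination group, and ANKRD1 went up from 5.1 to 37.9.

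CNN1 encodes calponin 1, which binds actin and restrains myosin in smooth muscle. It was lower in every treated group and lowest in the combination group. DMSO libraries had 4.48, 3.52 and 3.27 CPM, everolimus libraries 2, 2.05 and 1.8, SGI-1027 libraries 1.11, 1.41 and 1.21, and combination libraries 0.651, 0.276 and 0.421. No 2 groups overlapped, and the groups were ordered DMSO, everolimus, SGI-1027, combination. The log2 fold change against DMSO was -0.94 (SE 0.205, n = 3 per group) for everolimus, -1.60 (SE 0.216) for SGI-1027 and -3.06 (SE 0.250) for the combination, which left 0.12 of the DMSO level. These values rested on 11 to 25 counts per combination library and 125 to 167 per DMSO library, so the low end of the range was measured least exactly. Over the alternatives the combination value ranged from -3.42, without combination replicate 1, to -1.10 on the log2(FPKM + 1) scale, which compresses genes of low level. On that scale CNN1 was -0.49 with everolimus and -0.75 with SGI-1027, and all 3 calls were kept.

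ACTA2 encodes smooth muscle α-actin, the actin of myofibroblasts and vascular smooth muscle. It differed little with either drug alone and strongly with both. DMSO libraries had 47, 47.8 and 41.3 CPM, everolimus libraries 37.3, 38.9 and 38, SGI-1027 libraries 34.9, 38.6 and 37.6, and combination libraries 15.9, 11.8 and 11.8. The single-drug groups overlapped each other and lay below all DMSO libraries, and the combination lay below every other library. ACTA2 had a log2 fold change of -0.25 (SE 0.0837) for everolimus, -0.29 (SE 0.0838) for SGI-1027 and -1.78 (SE 0.0913) for the combination, or 0.29 of the DMSO level. The everolimus call was lost with upper-quartile normalization (-0.18), without DMSO replicate 2 (-0.22) and without everolimus replicate 1 (-0.24). In the GENCODE annotation, exons of ACTA2 overlap ACTA2-AS1 over 17.3% and FAS over 12.8% of their bases on the opposite strand. The sources used here do not state whether counting used strand, so reads of these genes there may not have been told apart.

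ACTG2, the enteric smooth muscle actin, had 15, 38 and 28 counts in the DMSO libraries. The everolimus libraries had 16, 19 and 22 counts, the SGI-1027 libraries 15, 19 and 21, and the combination libraries 16, 7 and 7. The DMSO and treated groups overlapped, and at this depth only the combination was called, with a log2 fold change of -1.41 (SE 0.396). The single-drug values of -0.49 (SE 0.356) for everolimus and -0.53 (SE 0.358) for SGI-1027 were not called. On the log2(FPKM + 1) scale the combination value of ACTG2 was -0.30, also called.

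MYL9, the regulatory light chain through which myosin II is activated in smooth muscle and non-muscle cells, was slightly higher with either drug alone and lower with both. DMSO libraries ranged from 182 to 199 CPM, everolimus libraries from 214 to 221, SGI-1027 libraries from 200.1 to 222 and combination libraries from 121 to 146. The log2 fold change was 0.22 (SE 0.0581) for everolimus, 0.14 (SE 0.0582) for SGI-1027 and -0.48 (SE 0.0588) for the combination. The order was therefore combination, DMSO, SGI-1027, everolimus, and the last pair overlapped. The SGI-1027 call was lost in 9 of 21 alternatives, and without SGI-1027 replicate 3 the value was 0.09.

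TAGLN encodes transgelin (SM22α), an early smooth muscle protein that cross-links actin. DMSO libraries had 15.3, 15.4 and 14.4 CPM, everolimus libraries 21.7, 19.8 and 19.3, SGI-1027 libraries 17.7, 17 and 18.9, and combination libraries 15.8, 15.3 and 16. It was thus highest with everolimus alone, intermediate with SGI-1027 and, in the combination, overlapped DMSO. Its difference from DMSO was 0.43 (SE 0.068) on the log2 scale, 0.24 (SE 0.0686) and, not called, 0.06 (SE 0.0692) in that order. PCSK7 overlaps 11.4% of TAGLN exon bases on the opposite strand.

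TPM1 and TPM2 encode tropomyosins, which lie along the actin filament and set which myosins may bind it, and both were higher in every treated group. TPM1 had 1020 to 1047 CPM in DMSO, 1657 to 1731 in the everolimus group, 1654 to 1695 in the SGI-1027 group and 1468 to 1557 in the combination group. Its log2 fold change was 0.72 (SE 0.0332), 0.69 (SE 0.0332) and 0.55 (SE 0.0332), so that the combination lay below both single drugs. TPM2 had 7.02 to 9.37 CPM in DMSO, 11.9 to 13.8 in the everolimus group, 14.9 to 16.5 in the SGI-1027 group and 13.9 to 15.4 in the combination group. For TPM2 the log2 fold change was 0.70 (SE 0.102), 1.02 (SE 0.1) and 0.91 (SE 0.101), and the combination overlapped the SGI-1027 group. TPM1 and TPM2 thus did not follow CNN1 and ACTA2 downwards. Antisense genes on the opposite strand overlap TPM1 exons, TPM1-AS over 16.1% and AC079328.2 over 5.37% of their bases.

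ANKRD1 encodes a nuclear and sarcomeric ankyrin repeat protein and is a standard reporter of YAP activity. DMSO libraries had 4.83, 5.49 and 4.97 CPM, everolimus libraries 5.92, 5.42 and 5.12, SGI-1027 libraries 15.4, 16.7 and 17.9, and combination libraries 38.8, 40.1 and 34.7. The everolimus and DMSO libraries overlapped, while the SGI-1027 group was above both and the combination was above all. On the log2 scale ANKRD1 differed from DMSO by 0.10 (SE 0.1) for everolimus, which was not called, 1.71 (SE 0.0898) for SGI-1027 and 2.89 (SE 0.0869) for the combination. In folds, ANKRD1 was 3.26 times its DMSO level with SGI-1027 and 7.42 times with both drugs.

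CCN1 (CYR61) and CCN2 (CTGF) are secreted matricellular proteins that bind integrins and are direct YAP and TEAD targets. CCN2 had 62.3, 55.6 and 70.3 CPM in DMSO, 116, 104 and 111 in the everolimus group, 89.9, 87.9 and 96.4 in the SGI-1027 group, and 145, 151 and 143 in the combination group. No groups overlapped, and the order was DMSO, SGI-1027, everolimus, combination. CCN2 had a log2 fold change of 0.82 (SE 0.0656) for everolimus, 0.54 (SE 0.0658) for SGI-1027 and 1.22 (SE 0.0655) for the combination. AL133346.1 overlaps 8.34% of CCN2 exon bases on the opposite strand.

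CCN1 had 481.5 to 512 CPM in DMSO, 698 to 718 in the everolimus group, 678.5 to 749 in the SGI-1027 group and 739 to 772 in the combination group. All treated libraries were above all DMSO libraries, and the SGI-1027 group overlapped both other treated groups. Its log2 fold change was 0.51 (SE 0.0392), 0.53 (SE 0.0392) and 0.62 (SE 0.0393) for everolimus, SGI-1027 and the combination. By group means, ANKRD1 was higher with SGI-1027 than with everolimus, CCN2 was higher with everolimus, and the CCN1 libraries of those groups overlapped. The single-drug groups were not tested against each other.

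**Figure D2:**
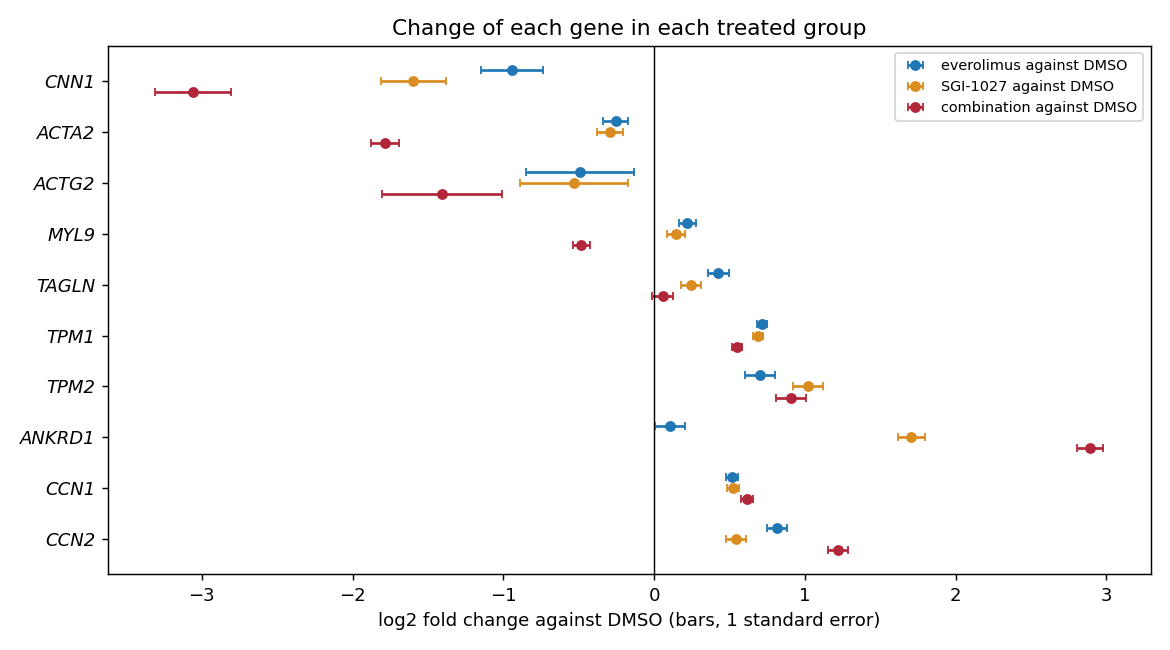
The log2 fold change against DMSO (horizontal axis) of each of the 10 genes in the everolimus, SGI-1027 and combination groups; bars are 1 standard error from the fit of all 12 libraries. CNN1 at -3.06 and ANKRD1 at 2.89 were the outermost combination values, and the ACTA2 and CNN1 combination values lay well below both of their single-drug values.

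Counted together, 6 of the 10 genes were called higher and 2 lower with everolimus, where 27.2% and 29.2% of all tested genes were called higher and lower. With SGI-1027, 7 were called higher and 2 lower, against 32% and 30.6% of all genes. In the combination group, 5 were called higher and 4 lower, against 32.8% and 33.4%. The 3 comparisons share the DMSO libraries, and since the genes had been selected on them, nothing is read from these counts. With the cut-off of the study, which asks for a log2 difference of 1 or more in size and p under 0.05 before adjustment, none of the 10 genes was called with everolimus, against 3.89% of genes higher and 0.903% lower. TPM2 and ANKRD1 were called higher and CNN1 lower with SGI-1027 (6.25% and 1.07% of all genes). ANKRD1 and CCN2 were called higher and CNN1, ACTA2 and ACTG2 lower in the combination group (7.25% and 2.71% of all genes). The median log2 fold change of the 10 genes was 0.32, 0.38 and 0.30 in the 3 treated groups, where that of all tested genes was 0.001268, 0.01683 and 0.007367.

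Set directly against everolimus alone, the combination had 3 of the 10 genes higher and 5 lower (20.1% and 19.2% of all genes). The largest differences were 2.79 (SE 0.0862) for ANKRD1, -2.12 (SE 0.263) for CNN1 and -1.53 (SE 0.0918) for ACTA2 on the log2 scale. CCN2 was also higher (0.41, SE 0.0637), and MYL9 (-0.70), TAGLN (-0.37) and TPM1 (-0.17) were lower. CCN1 was called by a narrow margin at 0.10 (SE 0.0391), and that call was lost in 9 alternatives, among them the fit with a replicate block (0.10). TPM2 (0.21, SE 0.0959) and ACTG2 (-0.92, SE 0.417) were not called. ACTG2 was called without combination replicate 1, the library with 16 counts, at -1.43.

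Set against SGI-1027 alone, the combination had 2 genes higher and 4 lower (9.4% and 10.2% of all genes). ANKRD1 (1.19, SE 0.0763) and CCN2 (0.68, SE 0.0642) were higher, and ACTA2 (-1.49, SE 0.0919), CNN1 (-1.46, SE 0.277), MYL9 (-0.63, SE 0.0588) and TPM1 (-0.14, SE 0.033) were lower. TAGLN (-0.19, SE 0.0684), TPM2 (-0.11, SE 0.0944), ACTG2 (-0.88, SE 0.419) and CCN1 (0.09, SE 0.0391) were not called. CNN1, ACTA2, MYL9 and TPM1 were accordingly lower, and ANKRD1 and CCN2 higher, with both drugs than with either one.

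The interaction, the combination value minus the sum of the single-drug values on the log2 scale, was called below 0 for 6 genes and above 0 for 1, where 22.1% and 23.6% of all genes were called. ACTA2 had the lowest interaction, -1.24 (SE 0.124), with a sum of single-drug values of -0.55 and a combination value of -1.78. The interaction of MYL9 was -0.85 (SE 0.0826), and its direction was opposite in the combination. TPM1 (-0.85, SE 0.0468), TPM2 (-0.81, SE 0.139), TAGLN (-0.61, SE 0.0964) and CCN1 (-0.42, SE 0.0553) were higher with each drug and stayed below the sum in the combination. ANKRD1, at 1.08 (SE 0.126), alone exceeded the sum upwards. CNN1 (-0.52, SE 0.346), ACTG2 (-0.38, SE 0.550) and CCN2 (-0.14, SE 0.0915) were not called, and the CNN1 value was 0.14 on the log2(FPKM + 1) scale. CCN2 was called at -0.22 without DMSO replicate 3. The everolimus dose of the single-drug group bears on every one of these values.

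**Figure D3:**
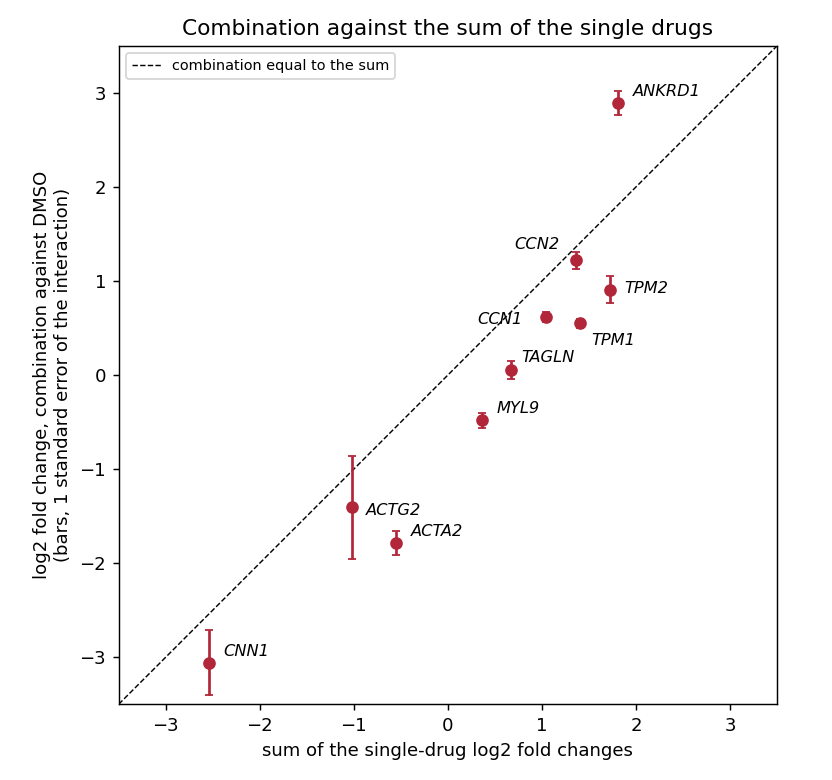
The combination log2 fold change against DMSO (vertical axis) of the 10 genes plotted against the sum of the everolimus and SGI-1027 log2 fold changes (horizontal axis); the diagonal is equality and bars are 1 standard error of the interaction. ACTA2 and MYL9 lay below the diagonal by 1.24 and 0.847, ANKRD1 above it by 1.08, and the interactions of CNN1, CCN2 and ACTG2 were not called.

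Across the 12 libraries the 10 genes did not move as one block. Pearson's r of log2 CPM was 0.92 for CNN1 with ACTA2, 0.89 for ACTA2 with MYL9 and 0.88 for TPM1 with TPM2. CCN1 went with TPM2 (0.92), TPM1 (0.91) and CCN2 (0.89). CNN1 and ANKRD1 ran opposite to each other (-0.93), whereas CNN1 and TAGLN were barely related (0.08). The points share 4 treatment groups, so these coefficients mainly compare group patterns.

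Among 11456 other tested genes averaging 50 counts or more, the patterns most like CNN1 by the same measure were those of BCLAF1 (0.98), NACC2 (0.98) and PKM (0.97), the last a pyruvate kinase. All 3 fell far less than CNN1, with combination log2 fold changes of -0.44, -0.50 and -0.29. Those most like ANKRD1 were ETV5 (r of 0.995), an ETS transcription factor, HDAC9 (0.99), a class IIa histone deacetylase, and SLC2A3 (0.99), a glucose transporter. ETV5 had a log2 fold change of 0.10 with everolimus, 1.02 with SGI-1027 and 1.81 with both. Those most like CCN2 were SOD2 (0.97), the mitochondrial superoxide dismutase, NIPAL3 (0.96) and PINK1 (0.96), a mitochondrial kinase.

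The other actins and tropomyosins place the 10 genes within their families. Per length, cytoplasmic ACTB and ACTG1 far exceeded ACTA2 and ACTG2: in DMSO their mean FPKM was 5569 and 3075, against 25 for ACTA2. The skeletal and cardiac actins ACTA1 and ACTC1 had 0 to 4 and 0 to 1 counts per library and were not tested. ACTB fell in all treated groups, by 0.25 with everolimus, by 0.46 with SGI-1027 and by 0.81 with both on the log2 scale (combination SE 0.0421, adjusted p = 1.05e-11). ACTG1 fell by 0.31 with SGI-1027 and by 0.60 in the combination (adjusted p = 1.00e-10), and was -0.05 with everolimus, which was not called and changed sign with upper-quartile normalization. ACTA2, ACTB and ACTG1 were thus all lower in the combination group, with ACTA2 the furthest below DMSO.

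Among the tropomyosins, TPM3 and TPM4 went the other way from TPM1 and TPM2 in the combination. TPM3 fell by 0.28 with everolimus, by 0.41 with SGI-1027 and by 0.51 with both drugs (SE 0.0328, adjusted p = 1.75e-10). TPM4 rose by 0.14 with everolimus, was -0.06 and not called with SGI-1027, and fell by 0.33 with both (SE 0.033, adjusted p = 7.79e-08). At an FPKM of 260.5 in DMSO and 386.9 in the combination group, TPM1 exceeded TPM4 (152.6 and 123.1) and TPM3 (84.2 and 59.9) per length. TPM2 stayed the least abundant of the 4 at 4.24 and 8.05.

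**Figure D4:**
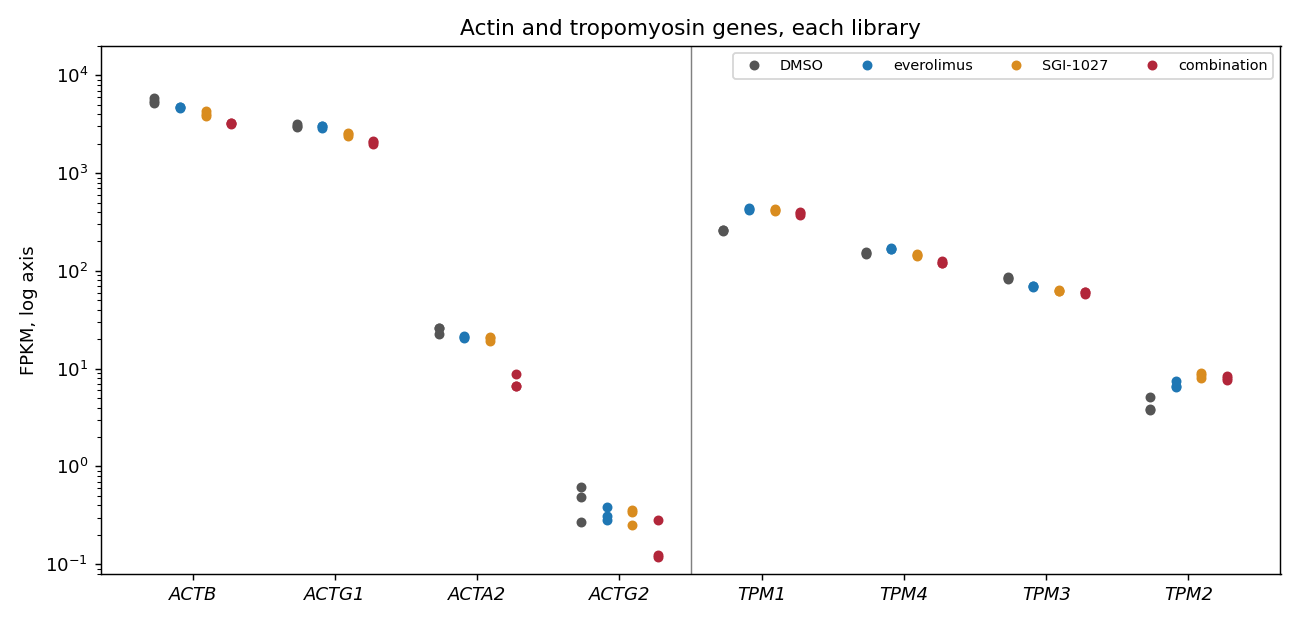
FPKM on a log axis of actin and tropomyosin genes in each of the 12 libraries, coloured by treatment group. Group means of ACTB and ACTG1 lay at 2062 or above and those of ACTA2 between 7.36 and 25, and TPM1 was the highest tropomyosin in every group.

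Genes of the same pathways other than the 10 were counted from lists of contractile machinery, SRF targets, YAP targets and pathway regulators. Some genes stand in more than 1 list, no list was tested as a set, and the counts stand beside the shares and medians of all tested genes given above. Of 33 contractile machinery genes, 27 were tested. With everolimus 10 of them rose, 8 fell and 9 were not called (median log2 fold change 0.02). With SGI-1027 10 rose, 9 fell and 8 were not called (0.05). In the combination 7 rose and 13 fell (-0.09), so the count of lower genes exceeded that of higher genes there. Against everolimus alone the combination had 1 of the 27 higher and 20 lower (20.1% and 19.2% of all genes). Against SGI-1027 alone 16 were lower (10.2% of all genes) and the other 11 were not called.

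Among the machinery genes with the smallest p in the combination, ACTB is given above. SMTN, smoothelin, fell by 1.10 (SE 0.0617, adjusted p = 2.63e-11). CALD1, caldesmon, which like calponin binds actin and restrains myosin, rose by 0.52 (SE 0.032, adjusted p = 9.05e-11). It had risen by 0.65 with everolimus and 0.62 with SGI-1027 as well, so calponin 1 and caldesmon moved in opposite directions in all treated groups.

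Of 40 SRF targets, 39 were tested. With everolimus 17 rose and 9 fell (median 0.05), with SGI-1027 17 rose and 15 fell (0.05), and in the combination 16 rose and 16 fell (-0.02). Against DMSO, SRF targets were thus as often higher as lower with both drugs, and 41% in each direction stood beside 32.8% and 33.4% of all genes. Against everolimus alone, the combination had 6 of the 39 higher and 24 lower (20.1% and 19.2% of all genes), and against SGI-1027 alone 4 higher and 17 lower (9.4% and 10.2%). The interaction was called above 0 for 6 and below 0 for 21 (23.6% and 22.1% of all genes). EDN1, endothelin 1, rose by 1.78, 1.93 and 1.51 (SE 0.0906, adjusted p = 7.13e-11). FLNC, filamin C, an actin cross-linker, fell by 0.63, 0.58 and 0.61 (SE 0.0365, adjusted p = 6.43e-11). The immediate early SRF targets EGR1 and FOSB, named after their values were seen, ended far apart, at -2.03 (SE 0.149, adjusted p = 1.13e-09) and 2.69 (SE 0.269, adjusted p = 7.38e-08) in the combination.

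Of 31 YAP targets, 29 were tested. With everolimus 20 rose and 4 fell (median 0.23), with SGI-1027 20 rose and 2 fell (0.29), and in the combination 20 rose and 8 fell (0.28). The count of lower genes in the combination was 5 with upper-quartile normalization, 5 with library totals alone and 5 without DMSO replicate 3. Most tested YAP targets were therefore higher in each treated group than in DMSO, as CCN1 and CCN2 were. Against everolimus alone, the combination had 14 of the 29 higher and 11 lower (20.1% and 19.2% of all genes). Against SGI-1027 alone it had 9 higher and 14 lower (9.4% and 10.2%). The interaction was called above 0 for 6 and below 0 for 18 (23.6% and 22.1% of all genes). Among these the combination thus more often lay under the sum of the single drugs than over it. A gene that rose with each drug and stayed at that level in the combination also lies under the sum. NT5E (CD73), an ectonucleotidase, rose from 128 to 431 CPM, a log2 fold change of 1.75 (SE 0.0501, adjusted p = 3.90e-15) after 0.51 with everolimus and 0.84 with SGI-1027. FRMD6, a Hippo pathway scaffold, rose by 1.13 (SE 0.0446, adjusted p = 2.31e-13). BIRC5, survivin, a gene of dividing cells, fell by 0.52, 0.97 and 1.21 (SE 0.0387, adjusted p = 1.63e-14).

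**Figure D5:**
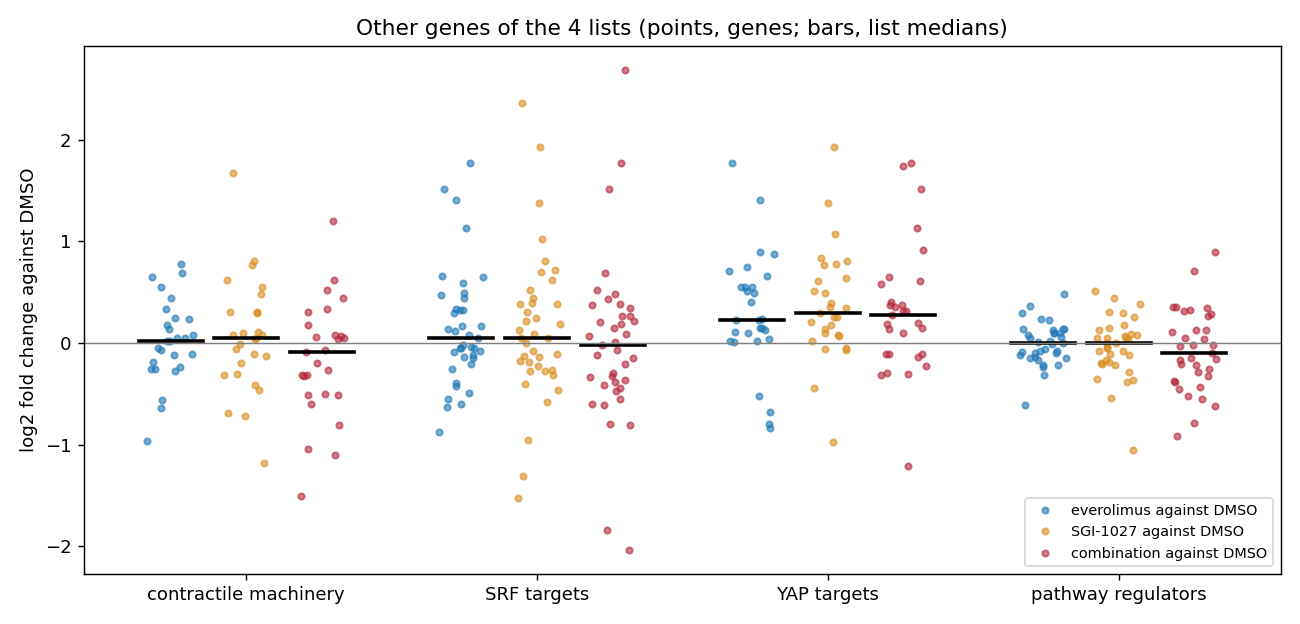
The log2 fold change against DMSO (vertical axis) of the tested genes in each of 4 lists, other than the 10 genes, in the everolimus, SGI-1027 and combination groups; points are genes and horizontal bars list medians. The YAP target medians lay at 0.226, 0.293 and 0.279, and those of contractile machinery and SRF targets between -0.0878 and 0.0534.

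Of 36 regulators of these programmes, 35 were tested, and MYOCD, the smooth muscle cofactor of SRF, was not, with 0 to 1 counts per library. With everolimus 6 rose and 9 fell (median -0.004388), with SGI-1027 8 rose and 11 fell (0.001363), and with both 10 rose and 17 fell (-0.10). With upper-quartile normalization the counts became 13 and 4 for everolimus, and 7 lower for SGI-1027. MRTFA, the actin-sensing cofactor of SRF, had 75 to 84.7 CPM in DMSO, 81 to 87.1 in the everolimus group, 57.7 to 65.7 in the SGI-1027 group and 43.5 to 46.7 in the combination group. MRTFA was 0.10 and not called with everolimus, fell by 0.35 with SGI-1027 and by 0.79 with both (SE 0.0582, adjusted p = 1.24e-09), and its interaction was -0.54 (adjusted p = 3.28e-05). Against DMSO, SRF itself was called only in the combination, where it fell by 0.38 (SE 0.0653, adjusted p = 5.3e-05), as did MRTFB, by 0.26 (SE 0.0476, adjusted p = 0.000119).

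The Hippo effectors moved apart in the combination. YAP1 was higher by 0.12 (SE 0.0436, adjusted p = 0.0178), a call lost without DMSO replicate 1 and without combination replicate 3. With everolimus alone YAP1 was already called higher, by 0.13, and with SGI-1027 it was 0.09 and not called. The everolimus call was lost without DMSO replicate 1 and without everolimus replicate 3. With SGI-1027, YAP1 was called higher in 4 of 21 alternatives, among them upper-quartile normalization and leaving out SGI-1027 replicate 3. Between the combination and everolimus YAP1 differed by -0.008, which was not called. WWTR1 (TAZ) had 234 to 251 CPM in DMSO and 163 to 168 in the combination group and fell by 0.56 (SE 0.0368, adjusted p = 2.86e-10), with an interaction of -0.35 (adjusted p = 2.96e-05). Its fall of 0.13 with everolimus (adjusted p = 0.00455) was not called with upper-quartile normalization. TEAD1 rose by 0.23, 0.29 and 0.35 (SE 0.0353, adjusted p = 7.99e-08), and TEAD4 fell by 0.61, 0.54 and 0.52 (SE 0.0599, adjusted p = 4.28e-07). TEAD3 rose by 0.34 in the combination (SE 0.0877, adjusted p = 0.00234), and TEAD2, at -0.62 (SE 0.216, adjusted p = 0.0171), lost its call without DMSO replicate 1. Neither TEAD2 nor TEAD3 was called with a single drug. Whether any of these regulators had a part in the values of CNN1, ACTA2 or ANKRD1 was not tested.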

How the data were processed

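RNA sequencing of 786-O cells was analysed in 4 groups of 3 libraries (DMSO, everolimus, SGI-1027, combination). The authors deposited raw counts per gene symbol and FPKM values for the same libraries. Each FPKM equalled the count divided by a gene length and the library total (100% of values, relative tolerance 1e-05). The submitters' processing notes name GRCm38 and mm10, mouse builds, although the symbols are human. The aligner and counting program are not given in the sources used here. The paper describes a stranded TruSeq kit and the sample records a SMARTER kit, so the strand setting is uncertain.

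The count test was run with edgeR 4.0.16 (R 4.3.3). Genes passing filterByExpr over the 4 groups (12841 of 17085) entered one quasi-likelihood fit of all 12 libraries with TMM factors and a prior count of 0.125, and p values were adjusted by Benjamini-Hochberg over all tested genes. The design had group as its only term. Each SE was the absolute log2 fold change divided by the square root of the quasi-likelihood F value, so it is not a gene's own spread alone. Alternatives were DESeq2 1.42.0, upper-quartile factors, library totals alone, other filters on low counts (none, or at least 10 counts in every library), a replicate block, separate fits of each pair of groups, limma-trend 3.58.1 on log2(FPKM + 1) and log2(FPKM + 0.1), and leaving out each library. The code was tested on simulated data.

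The 10 genes, the lists, the tests and the rule for named genes were chosen with earlier results of these data known. Named were the 10 genes, their actin and tropomyosin relatives, the SRF, MRTF, YAP and TEAD factors, the 4 genes with the lowest combination p from each target or machinery list, and the 3 genes most like CNN1, ANKRD1 and CCN2. A few of these are not reported here but remain in the fits and list counts. Promoter windows came from RefSeq (GRCh38.p14), and exon overlaps from GENCODE on GRCh38. Exon bases in GENCODE differ from the gene lengths behind the deposited FPKM, as with 2976 against 1808 for ACTA2. The overlap shares may therefore not match the regions that were counted. Protein sequences were not used here.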

Additional observations from a re-analysis of the deposited data

Results flagged for a closer look

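The response to the drugs together differed from the sum of the single-drug responses for 7 of the 10 genes, by the interaction contrast of edgeR over all 12 libraries. On the log2 scale this interaction was -1.236 for ACTA2, -0.8548 for TPM1, -0.8471 for MYL9, -0.8144 for TPM2, -0.612 for TAGLN, -0.4224 for CCN1 and 1.081 for ANKRD1. Over all tested genes, 22.1% were called below 0 and 23.6% above 0 in the same contrast. The genes had been selected with these groups in view, and if the everolimus group received 10 µM and the combination 5 µM, as the treatment protocol states, the contrast also holds that difference in dose. The part of the dose was not tested.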

How the results depend on the processing

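No direction of a called value for the 10 genes reversed in any alternative run. With upper-quartile factors, 1 of the 10 genes rather than 2 was called lower with everolimus, pathway regulators numbered 13 higher and 4 lower with everolimus (6 and 9 before) and 7 lower with SGI-1027 (11 before), and YAP targets lower in the combination numbered 5 (8 before), as with library totals alone (5). Upper-quartile factors gave 4480 higher and 2901 lower genes with everolimus (60.7% of calls higher) against 3488 and 3749 (48.2%). Leaving out 1 library at a time gave 1 to 2 of the 10 genes lower with everolimus (1 without DMSO replicate 2 or everolimus replicate 1) and 5 to 9 YAP targets lower in the combination (5 without DMSO replicate 3).

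Replicate numbers did not pair the libraries. Same-numbered libraries had correlations of their deviations between -0.1757 and 0.03585 over 18 pairs, and 2 of 12 libraries correlated best with their own number. The fit with a replicate block gave 3420 higher and 3664 lower genes with everolimus, 6 and 2 of the 10 genes, and among the 10 genes lost only the CCN1 call between the combination and everolimus. Depth limited ACTG2 (7 to 38 counts per library) and CNN1 in the combination (11 to 25). Fits of 2 groups at a time give no interaction.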
